A study of Mus musculus with 5 samples.

Results

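Immediate early genes are switched on within minutes of a stimulus, from transcription factors that are already in the cell, and enzymatic dissociation of a tissue is itself such a stimulus. The genes described here are 39 mouse genes of this response, chosen by name from a list of immediate early and dissociation response genes, out of 29818 genes listed in at least 1 of 5 single-cell libraries. All 39 were detected. They were read in 7 groups by role: 9 AP-1 and related bZIP factors (Fos, Fosb, Fosl1, Fosl2, Jun, Junb, Jund, Atf3, Maff), 4 EGR zinc-finger factors, 3 NR4A orphan nuclear receptors, 4 genes of the KLF factors and Myc, 8 genes of the IER, BTG, ZFP36 and GADD45 families, 5 feedback inhibitors (Dusp1, Dusp2, Dusp5, Dusp6, Socs3) and 6 heat shock chaperones.

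The early transcription factors turn on a later set of genes, and the induced messages are short-lived: Zfp36 and Zfp36l1 encode proteins that speed the decay of AU-rich messages, the DUSP phosphatases switch off the MAP kinases that drive the response, and Socs3 restrains cytokine signalling. Heat shock chaperones belong to a separate arm, driven by heat shock factor when proteins misfold. In cartilage, AP-1 and EGR factors also respond to mechanical load and to calcium entry, and TRPV4 is a mechanosensitive calcium-permeable channel.

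Growth plate cartilage of femur and tibia came from 5 littermate pups, 2 WT (pups 1 and 2) and 3 mutant (pups 3, 4 and 5), which carried a conditional knock-in of the activating Trpv4 p.R594H change switched on by Cre under the Col2a1 promoter. That promoter drives Cre in chondrocytes, and which of the other cells carried the recombined allele was not measured here. The strain label was C57BL/6J for all pups, and the Cre transgene was made on a mixed B6SJL background before backcrossing. The age was given as postnatal day 5 in the sample labels and day 3 in the design text. The epiphyses of all 5 pups were digested with collagenase I and then with collagenase II and trypsin (the labels give trypsin in the first step too, the study's methods do not), and cells were captured on a BD Rhapsody cartridge, 1 library per pup. No library of undigested tissue was analysed here, so expression in the animal and expression induced during digestion cannot be told apart in any value below.

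Of 84382 cells in the files, 82516 passed the filters (13814 to 19133 per pup), with a median of 6000 to 9261 UMIs per cell. Both WT libraries were deeper than the 3 mutant ones. Xist, transcribed from the inactive X of female cells, was seen in 88.4% to 89.8% of the cells of pups 3 and 4 and in at most 0.174% of the cells of pups 1, 2 and 5, so sex and genotype overlapped in part. Pairs of libraries shared 3 to 7 cell barcodes. The cells were sorted into classes by marker genes with the 39 genes kept out of the clustering: 47274 cells were chondrocytes (20995 resting, 11259 articular, 8573 proliferating, 4034 Tgfbi-expressing, 2413 hypertrophic), and although the samples were labelled as chondrocytes, 14876 were perichondrial and 8760 tendon or ligament cells, with smaller numbers of fibroblasts, osteoblast lineage cells, pericytes, muscle, endothelial, Schwann and blood cells. Values in lists of 5 below follow the order of pups 1 to 5, the first 2 being WT. They are shares of UMIs, or UMIs scaled to a common library total (CPM), in the summed cells of a class. Comparisons are over pups. In genotype comparisons the p-values rest on the spread of pups within genotypes. In class comparisons they rest on how far the class difference varied between pups.

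Serum response factor, CREB and the EGR factors are known to induce genes of this kind through short promoter motifs, and the promoters shown were picked because they hold a match to such a motif, a TATA box in the case of Fos, or, for the heat shock pair, because they bear on how well 2 members can be told apart. RefSeq promoter windows (build GRCm38.p6) matched 32 of the 39 genes. No window was given for Egr1, Egr3, Fosl1, Hsp90aa1, Hspa8, Ier2 and Myc. Egr2 had other windows beside that shown, and the window chr10:67535249-67535548 held no serum response factor motif. Motifs were searched in windows of 300 bases, of which 50 lie after the start; each line is the 250 bases before the transcription start, read 5′ to 3′ on the gene's strand, with the matched letters in capitals.
Fos, chr12:85473640-85473889, plus strand, TATA box (TATAAA) in capitals: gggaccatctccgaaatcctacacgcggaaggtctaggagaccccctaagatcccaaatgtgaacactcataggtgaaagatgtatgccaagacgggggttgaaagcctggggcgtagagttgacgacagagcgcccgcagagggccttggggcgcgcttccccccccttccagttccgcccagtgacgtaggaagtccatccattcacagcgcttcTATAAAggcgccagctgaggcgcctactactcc
Egr2, chr10:67537619-67537868, plus strand, CArG box (the serum response factor motif) in capitals: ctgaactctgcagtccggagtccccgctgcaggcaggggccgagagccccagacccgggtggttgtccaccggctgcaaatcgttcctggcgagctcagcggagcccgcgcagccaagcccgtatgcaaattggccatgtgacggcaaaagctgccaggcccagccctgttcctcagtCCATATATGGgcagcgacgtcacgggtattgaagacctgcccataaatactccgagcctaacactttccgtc
Zfp36, chr7:28379229-28379478, minus strand, EGR site and then CArG box in capitals: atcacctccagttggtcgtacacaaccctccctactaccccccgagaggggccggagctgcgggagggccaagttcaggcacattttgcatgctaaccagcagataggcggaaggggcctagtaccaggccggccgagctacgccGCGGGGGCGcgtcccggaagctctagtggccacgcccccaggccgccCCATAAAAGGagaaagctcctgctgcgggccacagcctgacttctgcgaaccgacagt
Dusp1, chr17:26508473-26508722, minus strand, cAMP response element in capitals: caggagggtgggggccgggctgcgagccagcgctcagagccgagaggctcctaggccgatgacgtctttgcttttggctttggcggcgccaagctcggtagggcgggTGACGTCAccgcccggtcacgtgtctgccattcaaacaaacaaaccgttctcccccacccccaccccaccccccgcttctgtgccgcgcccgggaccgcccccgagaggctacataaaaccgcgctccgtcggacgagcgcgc
Btg2, chr1:134079156-134079405, minus strand, cAMP response element and then EGR site in capitals: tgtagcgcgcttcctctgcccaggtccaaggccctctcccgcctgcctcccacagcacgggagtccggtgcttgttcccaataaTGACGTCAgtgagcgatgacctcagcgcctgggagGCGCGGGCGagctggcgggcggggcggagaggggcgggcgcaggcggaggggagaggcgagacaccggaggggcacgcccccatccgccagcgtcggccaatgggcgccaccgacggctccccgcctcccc

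Motifs were counted by gene, and a gene with several windows counted if any of them held a match. The EGR site (GCGNGGGCG, either strand) was found in 12 of the 32 genes with a window, Btg2, Dusp2, Fosb, Fosl2, Gadd45b, Klf2, Klf4, Maff, Nr4a1, Nr4a2, Socs3 and Zfp36, against 6.27% of all 27025 genes in the table. The CArG box was found in 3 (Dusp5, Egr2, Zfp36; 1.81% of all genes) and the cAMP response element (TGACGTCA) in 3 (Btg2, Dusp1, Maff; 2.03%). Only Zfp36l1 held an AP-1 site (TGANTCA; 8.97%), and only Hsph1 a heat shock element (0.662%), which lies after the transcription start. TATAAA on the gene's strand was found in 5 (Btg1, Fos, Gadd45b, Junb, Zfp36l1; 9.77%) and CCAAT in 16 (41.1%). The members' windows had a median GC content of 64.7%, against 52.8% over all genes, and the EGR site is GC-rich. These are matches of letters in a short window and say nothing of binding. The heat shock element was counted only where all 3 of its units matched, so imperfect elements were missed. The windows of Hspa1a and Hspa1b hold part of this motif, and the count does not show that they lack a heat shock element.

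Hspa1a and Hspa1b, neighbouring copies that encode the inducible HSP70, had windows identical at 247 of 250 positions. Their transcripts are near-identical too, so how the authors' counting divided reads between them is uncertain, and each is reported with that limit. Capitals mark the 3 positions at which they differ.
Hspa1a, chr17:34972157-34972406, minus strand: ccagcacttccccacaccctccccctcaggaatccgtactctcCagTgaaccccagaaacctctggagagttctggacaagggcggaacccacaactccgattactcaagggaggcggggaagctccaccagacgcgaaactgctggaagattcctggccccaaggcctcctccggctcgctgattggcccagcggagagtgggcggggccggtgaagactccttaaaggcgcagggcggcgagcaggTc
Hspa1b, chr17:34959239-34959488, minus strand: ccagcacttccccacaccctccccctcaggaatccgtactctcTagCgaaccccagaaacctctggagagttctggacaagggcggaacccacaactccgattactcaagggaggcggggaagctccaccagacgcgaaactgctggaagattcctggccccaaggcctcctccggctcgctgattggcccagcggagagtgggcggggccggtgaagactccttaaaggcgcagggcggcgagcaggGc

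The 39 genes together took 2.30, 2.48, 2.10, 1.96 and 2.39% of all UMIs (mean 2.25 ± 0.213, SD, n = 5). The 33 early genes, all but the chaperones, took 2.15, 2.33, 1.94, 1.83 and 2.27%, and the 6 chaperones 0.153, 0.150, 0.160, 0.136 and 0.126%. Every library held the response at a like level, and the lowest and highest pups in the early genes were a mutant (pup 4) and a WT (pup 2). The AP-1 group alone took 1.22, 1.26, 0.988, 0.993 and 1.25%, with mutant pup 5 between the WT pups.

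**Figure D1:**
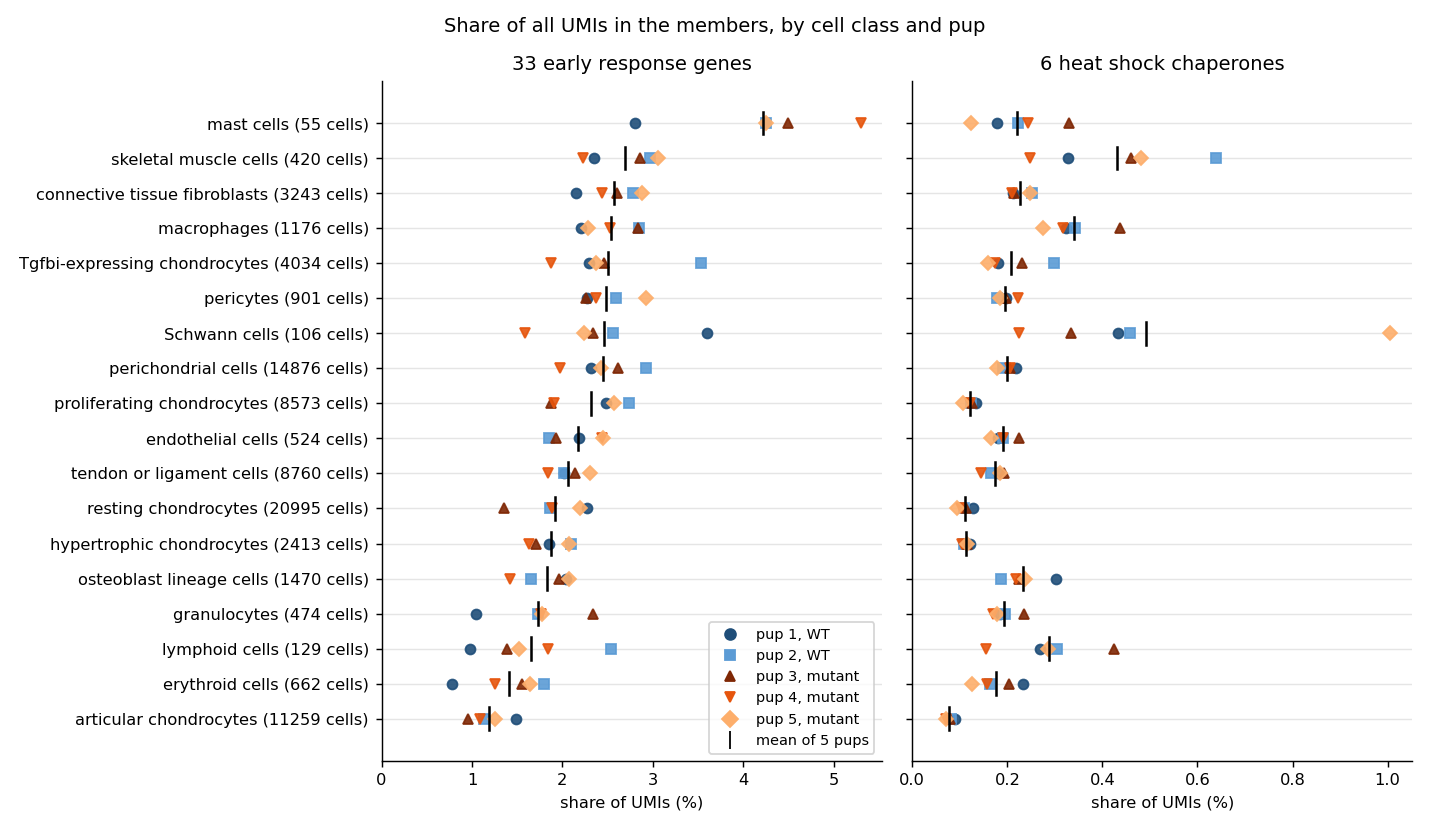
Share of UMIs (percent) in the 33 early genes (left panel) and in the 6 heat shock chaperones (right panel) for each named cell class. Each point is a pup, coloured by genotype, and the bar is the mean of 5 pups. Mast, muscle, Schwann and lymphoid cells had under 20 cells in some pup. Among the 14 classes with at least 20 cells in every pup, articular chondrocytes had the lowest mean share of early genes, 1.18%. Macrophages had the highest mean share of chaperones among them, 0.339%, below skeletal muscle and Schwann cells.

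Among chondrocytes the early genes were lowest in articular cells, at 1.48, 1.14, 0.953, 1.09 and 1.25% of UMIs. Resting chondrocytes held 2.28, 1.86, 1.36, 1.88 and 2.19%, and proliferating chondrocytes 2.48, 2.74, 1.88, 1.91 and 2.57%. In each of the 5 pups articular cells were below resting and proliferating cells. Hypertrophic chondrocytes (mean 1.87%) and Tgfbi-expressing chondrocytes (mean 2.50%, from 1.88% in pup 4 to 3.53% in pup 2) overlapped with both. Outside cartilage, perichondrial cells (mean 2.45%) and tendon or ligament cells (2.07%) lay within the span of the chondrocyte means. Fibroblasts (2.57%) and macrophages (2.54%) lay just above it, and erythroid cells had 0.781, 1.80, 1.55, 1.26 and 1.65%. The erythroid cells of pup 1 were mostly of 1 cluster (216 cells, against 45 of the other) and those of pups 2 to 5 mostly of the other (164 against 18 in pup 2). Mast cells had the highest mean, 4.22%, from only 55 cells; like muscle and Schwann cells, they had under 20 cells in some pup and were not tested.

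The chaperones followed another order. Articular, resting, hypertrophic and proliferating chondrocytes had a mean share between 0.0781% (articular) and 0.122% (proliferating). Tgfbi-expressing chondrocytes had 0.209%, perichondrial cells 0.200%, macrophages 0.339%, skeletal muscle cells 0.431% and Schwann cells 0.491%. The Tgfbi clusters differed, with 0.259% in cluster 13 and 0.0886% in cluster 24. The NR4A receptors had their own extremes, with a mean of 0.0142% in hypertrophic chondrocytes, 0.0910% in articular chondrocytes, 0.160% in pericytes and 0.520% in mast cells. The groups of the list thus did not rise and fall together from class to class.

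Within classes the response was concentrated in some clusters. A cluster of 1139 cells (numbered 25), led by Prlr, Col6a6, Cxcl12, Fgf10 and Vcan, had the highest share of the 37 clusters with at least 20 cells in every pup: 4.82, 6.46, 5.68, 5.48 and 6.14% of its UMIs were from the 39 genes. It was counted as perichondrial because it passed 9 markers of that class and had the marker Vcan among its leading genes, although its marker score was highest for fibroblasts. Its 5 pups contributed 84, 544, 301, 182 and 28 cells, and the lowest of them, pup 1, was still above the sum of all cells in any pup. A fibroblast cluster (20) followed with a mean of 3.44% in early genes, and the 4 lowest were articular clusters with means from 1.03% to 1.31%. Clusters of 1 class could be far apart: 2 clusters of proliferating chondrocytes had means of 2.75% and 1.59% (the lower, 3430 of the 8573 cells of the class, was led by Lgr6, Cilp2, Chad and Frzb and had a low marker score), and 2 of Tgfbi-expressing chondrocytes 2.79% and 1.52%. The cells of the lower Tgfbi cluster came unevenly from the pups (458, 21, 23, 500 and 373 cells), and whether that moved the Tgfbi class values was not tested.

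**Figure D2:**
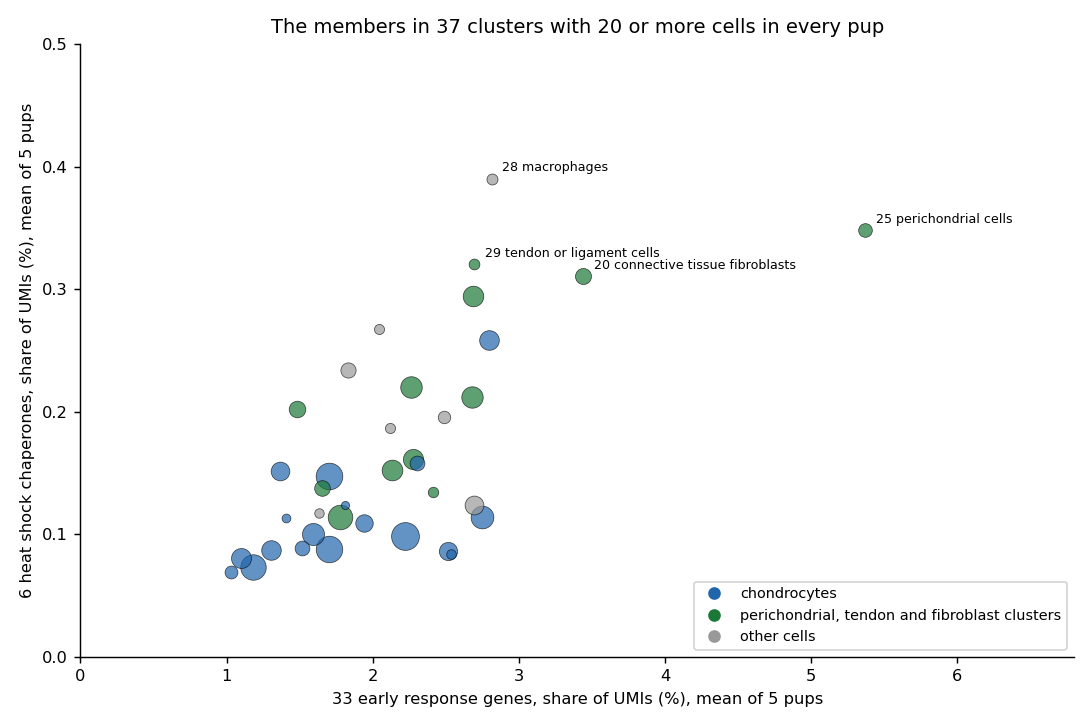
Mean share of UMIs over 5 pups in the 33 early genes (horizontal axis, percent) against the 6 heat shock chaperones (vertical axis, percent) for 37 clusters; each point is a cluster, coloured by class, and the numbers name clusters 20, 25, 28 and 29. Cluster 25 lies far to the right at 5.37% and 0.348%, while macrophage cluster 28 is highest in chaperones at 0.390%.

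Single cells varied widely around these sums. In perichondrial cells the median cell gave 1.76, 2.26, 2.10, 1.56 and 1.79% of its UMIs to the 39 genes, with a 10th percentile of 0.518% to 0.629% and a 90th percentile of 5.23% to 7.30%. The share of perichondrial cells above 5% was 13.4, 20.4, 16.9, 11 and 15.7%, against 2.30, 2.14, 1.42, 2.42 and 3.33% of articular chondrocytes and 0.272% to 0.996% of hypertrophic chondrocytes, in which UMIs per cell were 21728 to 29688 at the median. Cells above 5% were found in every library.

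Across cells several early genes moved together, and the chaperones moved with them to a degree that differed between classes. After each cell was thinned to 2000 UMIs, the Spearman correlation between Fos and Egr1 in perichondrial cells was 0.71 to 0.75 over the 5 pups (2027 to 3832 cells per pup), 0.66 to 0.73 between Fos and Jun, and 0.64 to 0.70 between Fos and Zfp36. The correlation was lower between Fos and Jund (0.25 to 0.38) and near 0 between Fos and Klf4 (0.07 to 0.11). The summed early genes and the summed chaperones had a correlation of 0.35 to 0.42 in perichondrial cells and of 0.03 to 0.08 in resting chondrocytes, where Fos and Egr1 still had 0.52 to 0.66. These sums had 0.15 to 0.29 in tendon or ligament cells and 0.09 to 0.23 in proliferating chondrocytes. They had 0.08 to 0.15 in articular and -0.0007 to 0.16 in hypertrophic chondrocytes. Fos and Egr1 had 0.33 to 0.45 in hypertrophic chondrocytes. Against the mitochondrial share the early genes had a correlation of -0.48 to -0.29 in hypertrophic and -0.25 to -0.16 in resting chondrocytes, but of -0.11 to 0.13 in articular chondrocytes and of -0.24 to 0.01 in tendon or ligament cells. These correlations describe cells that share a library and a capture, so no p is given.

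Most cells carried a UMI of the abundant members. With cells thinned to 2000 UMIs, Fos was seen in 73.0, 63.7, 48.7, 57.3 and 63.3% of chondrocytes (mean 61.2%, and 78.3% without thinning) and in a mean of 72.5% of perichondrial and tendon or ligament cells (85.4% without thinning). In erythroid cells, chosen for this comparison as the class of least transcription, the mean was 53.0% (68.0% without thinning). Egr1 was seen in a mean of 57.8% of chondrocytes and 44.1% of erythroid cells, and Nr4a1 in 39.7% and 29.5%. Median UMIs were 6310 to 9943 in chondrocytes and 6244 to 9311 in erythroid cells. The erythroid class was thus not shown to transcribe little and gives no floor for these genes. The part of free RNA and of doublets, which were not called, was not tested, and shares of Fos-positive cells are not read here as shares of responding cells. Hspa1b was seen in 6.54% of chondrocytes, below the 13.6% of erythroid cells, and Fosl1 in 9.17% of chondrocytes, above the 4.82% of erythroid cells and the 2.29% of perichondrial and tendon or ligament cells.

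**Figure D3:**
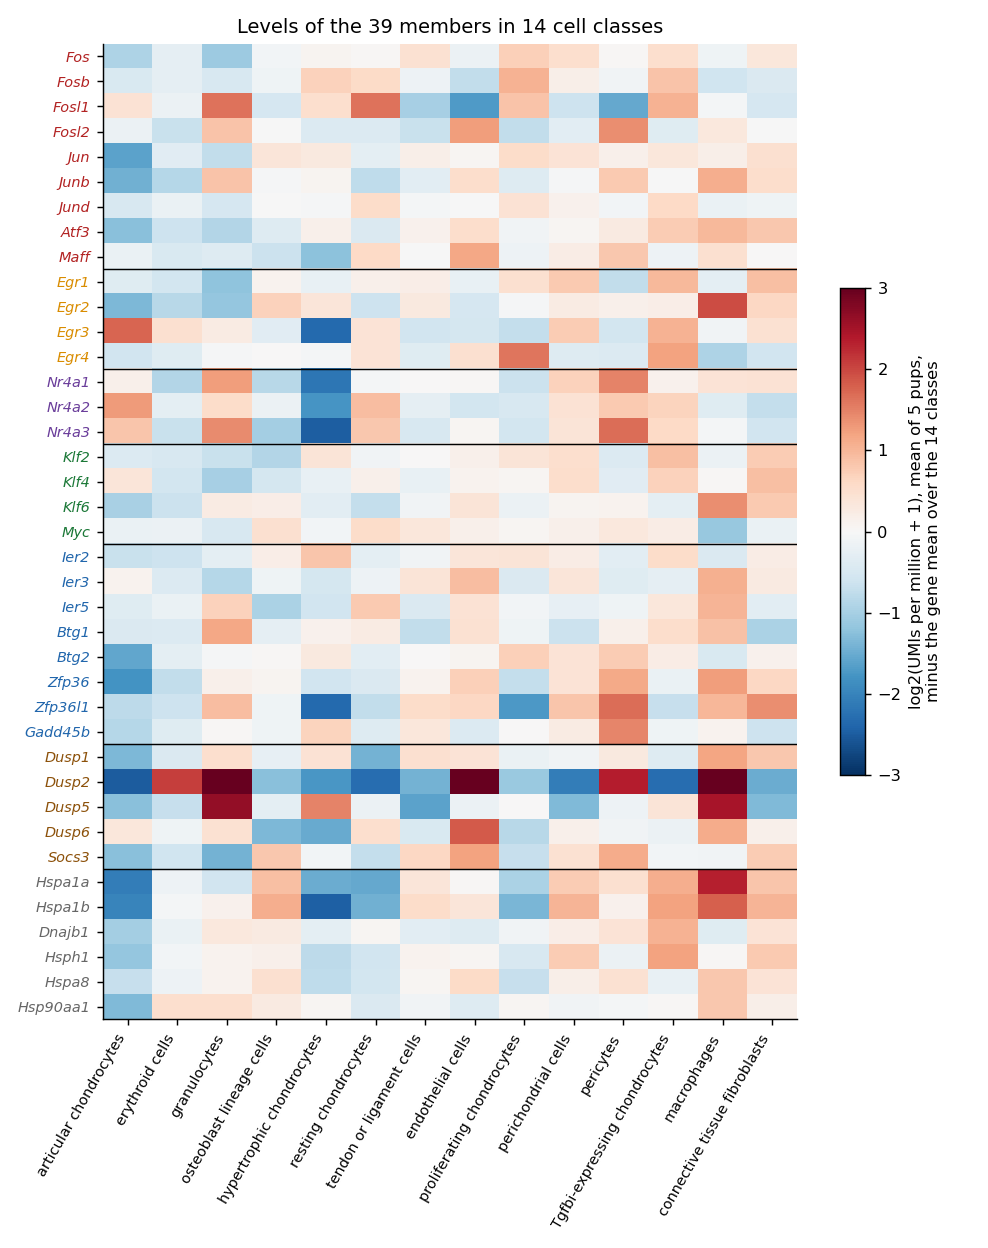
Levels of the 39 genes (rows, grouped by role) in 14 cell classes (columns): log2(CPM + 1), mean of 5 pups, minus the gene's mean over the classes, with the colour scale limited at -3 and 3. Dusp2 in endothelial cells runs beyond the scale, the NR4A receptors and Egr3 are low in hypertrophic chondrocytes, and the chaperones are high in macrophages.

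Each member had its own distribution over the 14 classes. Fos ran from a mean of 1654 CPM in granulocytes to 5809 in proliferating chondrocytes, and Jun from 435 in articular to 1949 in proliferating chondrocytes. Egr1 was lowest in granulocytes (587) and highest in Tgfbi-expressing chondrocytes (2655), while Egr3 was lowest in hypertrophic (5.95) and highest in articular chondrocytes (117.8). Zfp36l1 was highest in pericytes (2463, against 151 in hypertrophic chondrocytes), Nr4a1 too (1156 against 90.9), and Zfp36 in macrophages (5041, against 608 in articular chondrocytes). Among the feedback inhibitors, Dusp2 was nearly confined to endothelial cells (295, against 0.701 in articular chondrocytes), Dusp6 also peaked there (334) and Dusp5 in granulocytes (618, against 31.7 in tendon or ligament cells). Myc was highest in resting chondrocytes (316) and lowest in macrophages (97.3). Of the 39 genes, Jund, the AP-1 subunit known for steady expression, had the narrowest range, from 1250 to 2691.

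Perichondrial and tendon or ligament cells, which lie around the cartilage, were compared with all chondrocytes by edgeR with the pup as a block. Of the 39 members, 24 were higher (against 33.4% of all genes tested) and 7 lower (against 34.6%), with a median log2 fold change of 0.34. All 6 chaperones were higher, with a median of 1.03. The scaling matters here: without TMM scaling the median of all genes moved by -0.20, the genes called higher fell to 23.6% and those called lower rose to 46%, and the members split into 17 higher and 9 lower, with 5 of the 6 chaperones still higher. Fos, Fosl2, Maff, Klf2, Klf4, Btg2 and Dnajb1 were not called in that fit, and Jund and Nr4a3 were called lower. In another alternative added after seeing the data, without the clusters that scored highest for another class and the cycling resting cluster, 18 members were higher (34.2% of genes) and 6 lower (35.4%). A tendon or ligament cluster of 1812 cells, also led by cycling genes, was kept in it. Of the 31 members called, 22 were called in all 13 alternatives.

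Hspa1b stood at 346, 216, 264, 274 and 373 CPM in perichondrial and tendon or ligament cells, and at 108, 56.6, 61.8, 88.6 and 74.2 in chondrocytes. It was higher outside the cartilage in every pup, and the log2 fold change was 2.12 (SE 0.12, adjusted p = 1.2e-05, edgeR). Hspa1a, its near-copy, stood at 196, 124, 150, 139 and 194 against 71.0, 46.2, 42.0, 56.4 and 52.4, with a log2 fold change of 1.77. Hspa8, the constitutive HSC70, was higher by 0.92, Hsph1, an HSP110 exchange factor, by 1.15, and Hsp90aa1, the inducible HSP90, by 0.34. The chaperones were uneven within the perichondrial class. Cluster 10 (2949 cells), with Hspa1b and Hspa1a among its leading genes, had a mean chaperone share of 0.295%. Cluster 4 (4317 cells) had 0.114%, within the span of the chondrocyte clusters. Clusters 7, 8 and 25 had 0.220, 0.212 and 0.348%.

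Zfp36l1 was the leading early gene in the same direction, at 991, 1678, 1451, 1259 and 1041 CPM against 313, 345, 312, 344 and 487 in chondrocytes (log2 fold change 2.01, SE 0.20, adjusted p = 0.00049). Its paralogue Zfp36 had 2295, 3183, 2911, 2202 and 2425 against 1355, 1408, 934, 1184 and 1852 (1.16). Each pup was higher outside the cartilage for both genes. Socs3 stood at 179, 234, 249, 199 and 213 against 90.3, 97.5, 89.0, 87.1 and 120 (1.34), Dusp1 at 487, 518, 524, 580 and 542 against 323, 327, 269, 296 and 355 (0.94), and Nr4a1 at 569, 533, 589, 448 and 698 against 372, 347, 298, 318 and 337 (0.94). All 3 were higher outside the cartilage in every pup.

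The AP-1 group was split. Fosl1, which encodes FRA1, was lower outside the cartilage, at 14.4, 10.1, 14, 14.1 and 18.7 CPM against 58.8, 66.1, 62.3, 41.8 and 48.0 (log2 fold change -1.78, SE 0.22, adjusted p = 0.0012). Fosb was lower too (-0.39), although it was not called without pup 2, 4 or 5. Fos, at 5218, 5725, 5136, 3532 and 5108 against 5227, 4600, 2496, 3483 and 4364, had a log2 fold change of 0.50 (adjusted p = 0.0444); it was higher in 4 of 5 pups, and its call was lost without pup 2, 4 or 5 (adjusted p = 0.0883, 0.0606 and 0.0878), as it was with the clusters of doubtful name left out (0.37, adjusted p = 0.127). Junb (0.59) and Atf3 (0.48), a stress-induced repressor, were higher, and Jun missed the threshold (0.51, adjusted p = 0.0611). Jun was called without pup 3 (0.34, adjusted p = 0.0486).

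Among the remaining genes, Dusp5, the phosphatase of nuclear ERK, stood at 30.5, 26.5, 42.8, 36.8 and 44.4 CPM outside the cartilage and at 78.9, 154, 163, 76.6 and 105 in chondrocytes (log2 fold change -1.44, adjusted p = 0.0053). Egr4 was lower by -1.82 on the log2 scale, at levels of at most 4.76 CPM, and Btg1, an antiproliferative gene, by -0.56. Egr1 was higher by 0.55 and Klf4 by 0.28, the latter not called without TMM scaling. Myc (0.21, adjusted p = 0.0866) and Ier2 (0.15, adjusted p = 0.125) were not called; without pup 5 Myc was (0.28, adjusted p = 0.0194), and without pup 2 Ier2 was (0.22, adjusted p = 0.0401).

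**Figure D4:**
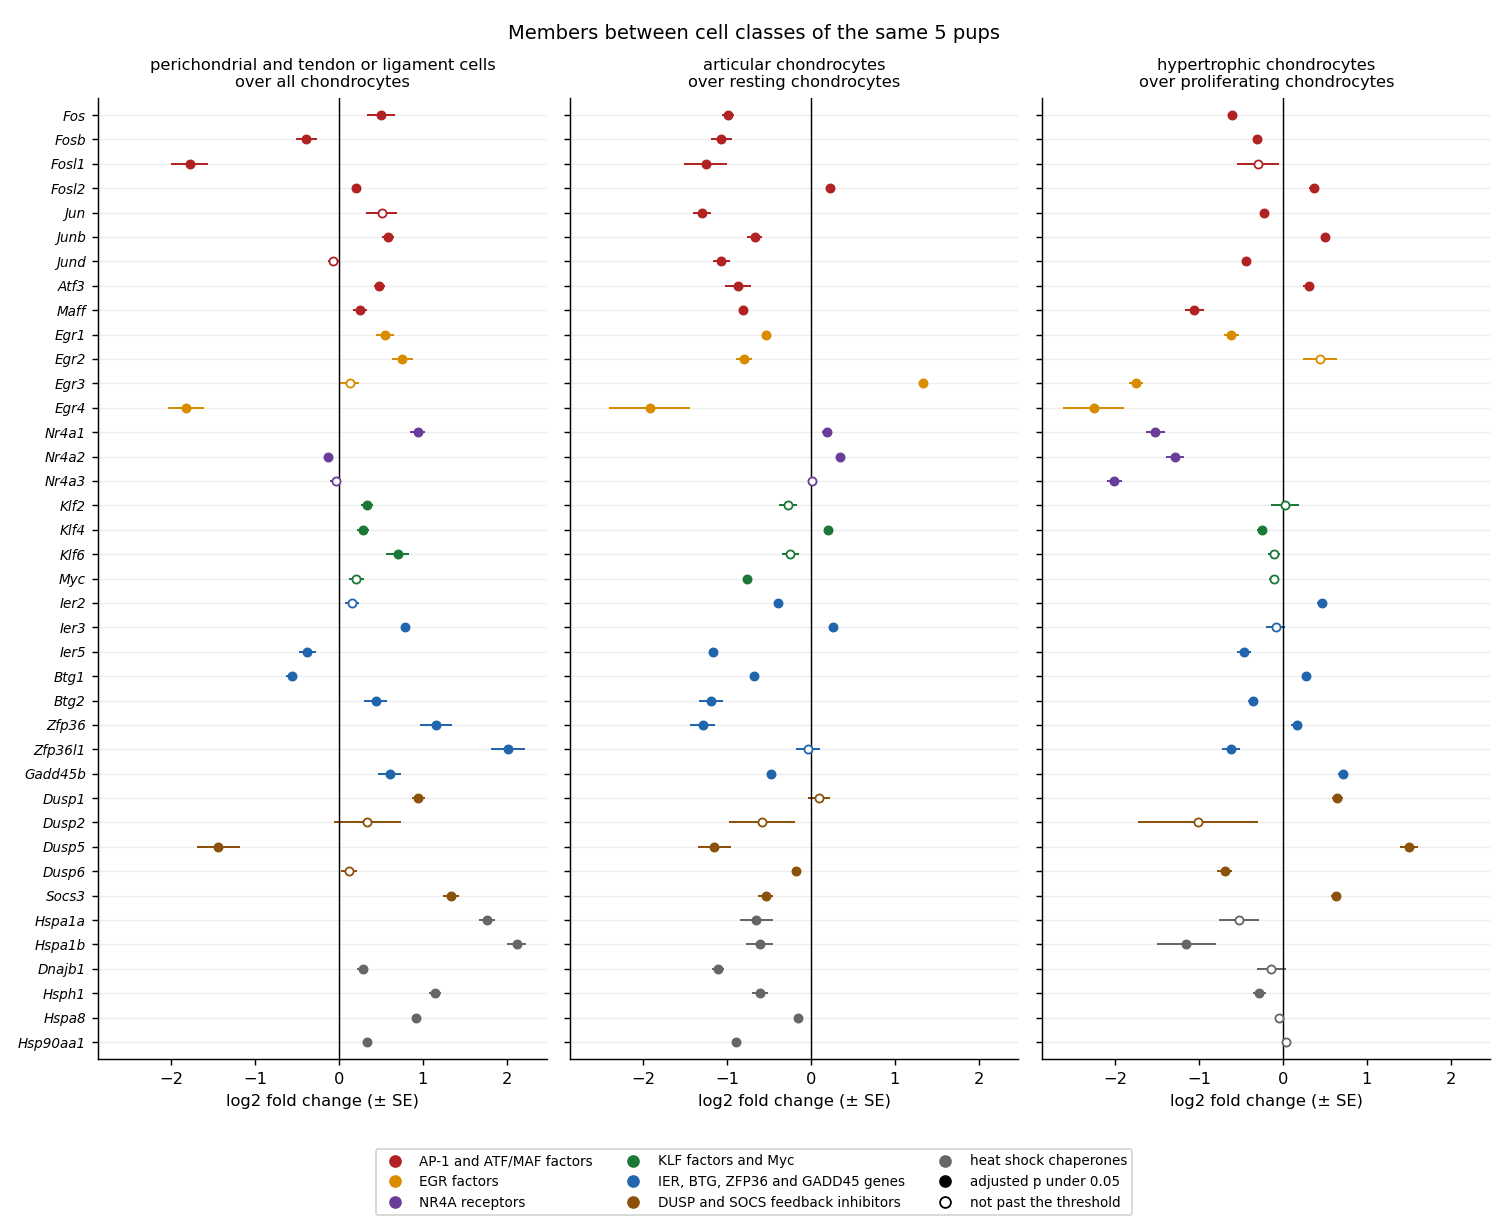
Log2 fold changes of the 39 genes in 3 comparisons of cell classes (edgeR, 5 pups, pup as a block), with bars of 1 standard error; filled points passed an adjusted p of 0.05. Most members lie above 0 in perichondrial and tendon or ligament cells over chondrocytes (24 called higher, against 33.4% of all genes). Most lie below 0 in articular over resting chondrocytes (27 called lower, against 29.8% of all genes). The first count was smaller without TMM scaling.

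Articular chondrocytes, which form the joint surface and secrete lubricin, were set against resting chondrocytes, named for the reserve zone of the growth plate. Of the 20995 resting cells, 5139 formed a cluster whose marker score was highest for articular chondrocytes and 2388 a cluster led by cycling genes such as Top2a. Here 27 members were lower (29.8% of all genes were) and 6 higher (29.6%), with a median log2 fold change of -0.61. Of the 9 AP-1 and related factors 8 were lower, and so were all 6 chaperones and 6 of the 8 IER, BTG, ZFP36 and GADD45 genes. Without those clusters, an alternative added after seeing the data, 26 members were lower (30.6% of genes) and 6 higher (31.2%). Of the 33 members 27 were called in all 13 alternatives.

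Jun stood at 602, 395, 322, 372 and 484 CPM in articular and at 1308, 964, 607, 1159 and 1339 in resting chondrocytes (log2 fold change -1.30, SE 0.11, adjusted p = 0.00047). Zfp36 had 623, 638, 434, 555 and 789 against 1686, 1358, 733, 1413 and 2673 (-1.29), and Fos 3018, 1818, 1160, 1470 and 1784 against 5148, 3649, 1969, 3457 and 3832 (-0.99). In every pup the articular value was the lower. Btg2, a p53- and serum-induced antiproliferative gene, had 190, 127, 103, 135 and 147 against 535, 371, 179, 274 and 297 (-1.19). Fosl1 (-1.26), Egr4 (-1.92), Atf3 (-0.87), Myc (-0.76), Junb (-0.67), Egr1 (-0.54) and Ier2 (-0.40) followed. Hsp90aa1 fell by 0.89 on the log2 scale. Hspa1a (-0.65) and Hspa1b (-0.61) passed the test, but Hspa1a was not called without any 1 of pups 2 to 5 (adjusted p from 0.0933 to 0.126), nor Hspa1b without pup 2, 4 or 5 (0.0600 to 0.0739), and without those 2 resting clusters they stood at -0.32 and -0.09, neither called.

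Egr3 was the leading exception. It stood at 94.3, 131, 127, 133 and 103 CPM in articular cells and at 39.1, 54.9, 50.5, 43.1 and 42.4 in resting cells, a log2 fold change of 1.34 (SE 0.06, adjusted p = 4.3e-10), and was higher in every pup. Nr4a2 (0.35), Ier3 (0.26), Fosl2 (0.23), Klf4 (0.20) and Nr4a1 (0.19) were also higher. Ier3 was not called in a coarser clustering (0.03) or with the 39 genes among the clustering features (0.07), and Nr4a1 was not called without pup 1 or 5 (adjusted p = 0.0518 and 0.0629). Dusp1 did not pass (0.09, adjusted p = 0.585). Thus within the EGR family 1 gene was higher and 3 lower in the same cells.

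Hypertrophic chondrocytes enlarge and express type X collagen. Of the 2413 cells in this class, 2040 formed a cluster led by Smpd3, Panx3, Ihh and Pth1r, genes of the prehypertrophic stage, and 298 a cluster led by Col10a1, so the class was mostly prehypertrophic. It was compared with proliferating chondrocytes, without an unnamed cluster of 2418 cells whose marker score was highest for proliferating chondrocytes. Of the 39 members 18 were lower (30.5% of all genes were) and 10 higher (28.6%). All 3 NR4A receptors were lower, with a median of -1.52. Nr4a3 stood at 12.5, 10.7, 9.39, 8.84 and 9.59 CPM in hypertrophic and at 43.3, 43.0, 50.4, 33.4 and 37.4 in proliferating cells (log2 fold change -2.01, SE 0.09, adjusted p = 4.7e-10), and Nr4a1 at 70.4, 127, 100, 70.9 and 85.8 against 297, 316, 252, 205 and 242 (-1.52). Both were lower in hypertrophic cells in every pup. Nr4a2 (-1.28) followed, as did Egr3 (-1.75, at 5.58, 9.52, 7.37, 2.64 and 4.64 against 18.5, 33.3, 23.5, 9.65 and 17.8) and Egr4 (-2.26).

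In the opposite direction, Dusp5 stood at 143, 364, 437, 182 and 275 CPM in hypertrophic and at 72.4, 141, 141, 50.3 and 91.6 in proliferating chondrocytes, higher in every pup (log2 fold change 1.5, SE 0.11, adjusted p = 1.1e-05). Gadd45b, a stress-responsive partner of p38 signalling, was higher by 0.71, Dusp1 by 0.65, Socs3 by 0.63, Junb by 0.50, Ier2 by 0.46 and Atf3 by 0.31. Dusp6, the phosphatase of cytoplasmic ERK, was lower (-0.70). Fos (-0.60), Egr1 (-0.61), Jun (-0.22), Klf4 (-0.25) and Hspa1b (-1.15) were also called lower. Hspa1a (-0.52, adjusted p = 0.123), Myc (-0.10, adjusted p = 0.139) and Hsp90aa1 (0.03, adjusted p = 0.585) did not pass. The call of Hspa1b was lost without any 1 of pups 1 to 4 (adjusted p from 0.100 to 0.128). With a coarser clustering, or with the 39 genes left among the clustering features, Fos, Egr1, Jun and Egr4 all changed sign. With a finer clustering Atf3 (0.22), Ier2 (0.13) and Egr3 (-0.45) were not called. Of the 28 calls 16 kept their direction in all 13 alternatives, and 15 were called in all of them, of which 4 (Btg2, Fos, Fosb and Jun) changed sign in some. Without the clusters whose marker score was highest for another class, 18 members were lower (31.1% of genes) and 9 higher (29.2%). In this contrast that left out only a hypertrophic cluster of 75 cells and no proliferating cells, so it could move little.

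The question of genotype was whether the activated channel changed the response in the cells of mutant pups. With edgeR over 2 WT and 3 mutant pups, none of the 39 members passed an adjusted p of 0.05 in any of 16 comparisons (all cells, all chondrocytes and 14 classes). Of all genes tested, 0% passed in 14 of these comparisons, 0.0444% in endothelial cells and 0.0679% in macrophages. At an unadjusted p under 0.05, 70 of 612 tests of members passed, against 4.76% of all tests of genes. The members are not independent of each other and these tests share pups. Median UMIs per cell were higher in both WT pups, and the hemoglobin share of all UMIs was 0.124, 0.130, 0.0858, 0.0235 and 0.0242%; their part in the values below was not tested. DESeq2 called 2 members, both in all chondrocytes and both lower in mutant pups: Btg2 (log2 fold change -0.64, adjusted p = 0.0246) and Egr4 (-1.0, adjusted p = 0.0181). DESeq2 called 0.158% of all genes there.

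**Figure D5:**
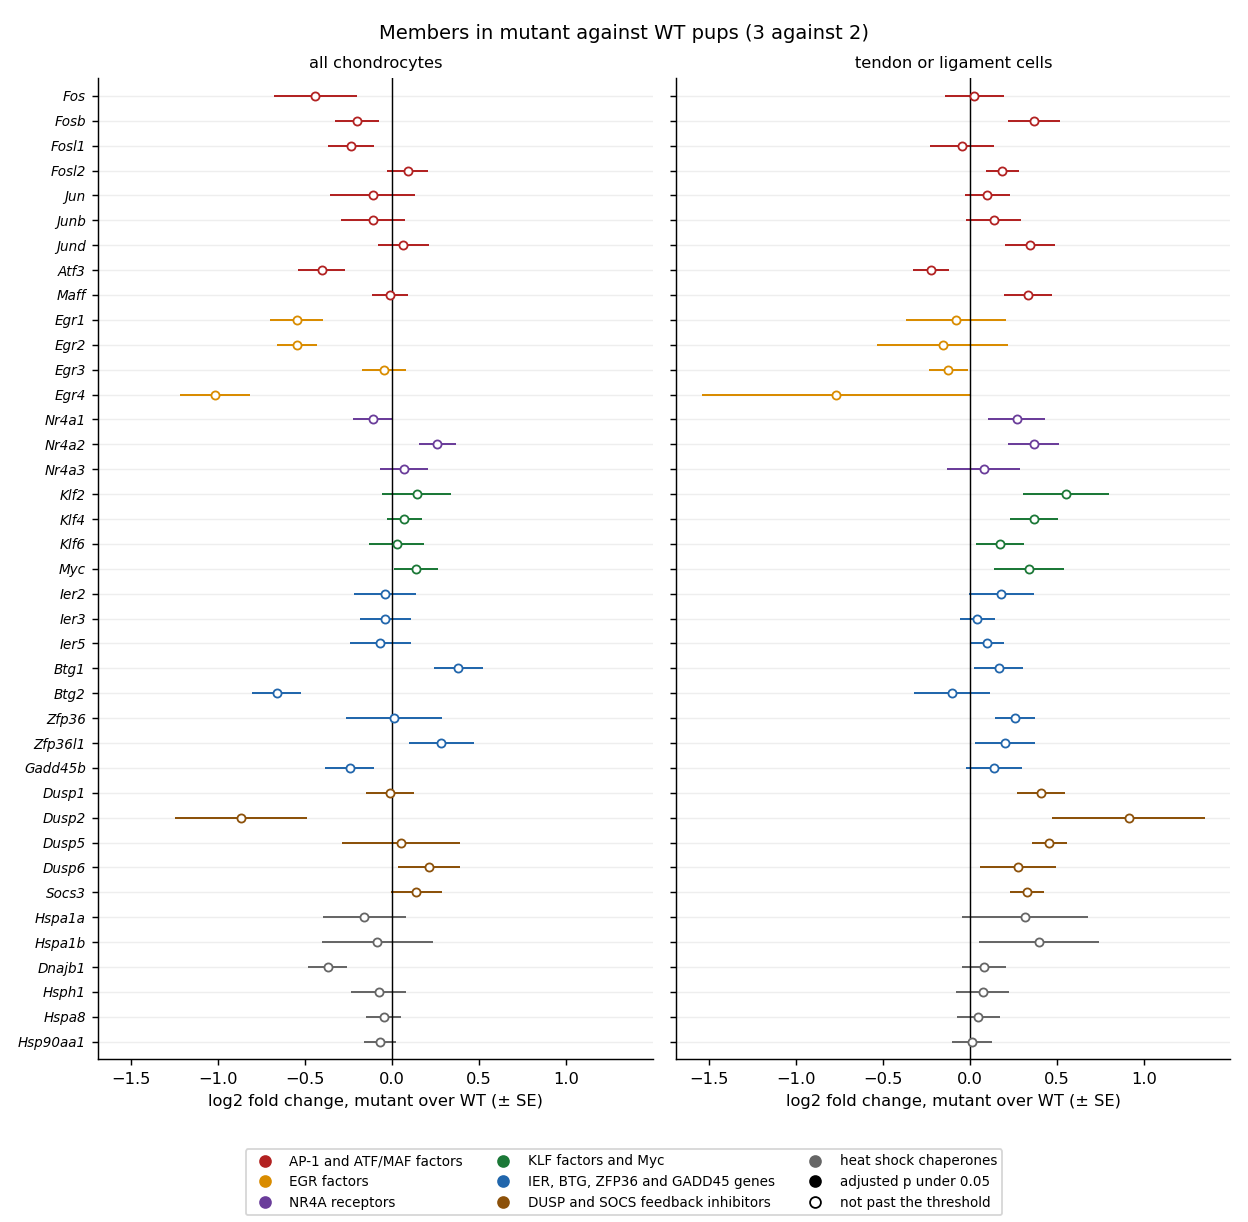
Log2 fold change, mutant over WT, of each of the 39 genes in all chondrocytes and in tendon or ligament cells (edgeR, 2 WT and 3 mutant pups), with bars of 1 standard error. No point passed an adjusted p of 0.05; the 4 EGR genes lie below 0 in both, and 32 of 39 points lie above 0 in tendon or ligament cells.

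In all chondrocytes 8 of 39 members had an unadjusted p under 0.05 (5.58% of all genes did). Sums over several chondrocyte classes can also move with the mix of classes, and a change in mix and a change per cell cannot be told apart in them. The 4 EGR genes all had negative log2 fold changes, with a median of -0.55 with TMM scaling and -0.61 without it. Egr1 stood at 2030 and 1935 CPM in WT and at 1201, 1112 and 1573 in mutant pups (log2 fold change -0.55, SE 0.15, adjusted p = 0.83, edgeR). Egr2, needed for myelination by Schwann cells, had 21.4 and 21.5 against 14.3, 12 and 15.8 (-0.55), and Egr4 3.50 and 4.76 against 2.41, 1.88 and 1.52 (-1.02). The WT and mutant values of these 3 did not overlap, and those of Egr3 did; 17.3% of all genes had both WT pups above the mutant pups on these plain values.

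Btg2 also did not overlap, at 494 and 631 CPM in WT and 312, 305 and 395 in mutant chondrocytes (log2 fold change -0.66, SE 0.14, adjusted p = 0.83, edgeR). Fos stood at 5227 and 4600 against 2496, 3483 and 4364 (-0.44, SE 0.24, adjusted p = 0.83), with the spread between mutant pups as wide as the gap between groups. Atf3 had 296 and 353 against 225, 199 and 276 (-0.41, adjusted p = 0.83). Jun (1477 and 1385 against 887, 1296 and 1597), Zfp36 (1355 and 1408 against 934, 1184 and 1852), Dusp1 (323 and 327 against 269, 296 and 355) and Hspa1b (108 and 56.6 against 61.8, 88.6 and 74.2) overlapped. Pup 5 was the highest of the 5 for Jun, Zfp36 and Dusp1. The log2 fold changes of Jun (-0.11), Junb (-0.11), Nr4a1 (-0.11), Ier2 (-0.04), Dusp1 (-0.01), Hspa1a (-0.16), Hspa1b (-0.09), Hsp90aa1 (-0.07), Klf4 (0.07) and Myc (0.14) had adjusted p-values from 0.869 to 0.99.

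The 3 KLF factors and Myc all had positive log2 fold changes (median 0.10), of which 3 stayed positive without TMM scaling. The 6 chaperones had negative ones (median -0.08 and, for Dnajb1, -0.37). On TMM-scaled values both WT pups were above all 3 mutant pups for 6 members, Atf3, Btg2, Dnajb1, Egr1, Egr2 and Egr4 (against 12.6% of all genes), and all mutant pups were above both WT pups for Btg1 and Nr4a2 (against 10.7%). On plain CPM the counts were 10 and 1, against 17.3% and 5.43% of genes. In the sum of all cells the counts were 6 and 6 on TMM-scaled values, against 12.4% and 10.1%, but 9 and 1 on plain values, against 19.8% and 3.84%, and 4 members had an unadjusted p under 0.05 (5.56% of genes).

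Among the chondrocyte classes, proliferating cells had the most members with an unadjusted p under 0.05, 7 of 39 (5.84% of genes). The mix of clusters in this class differed between pups. Cluster 5 (mean 2.75% in early genes) gave 850, 893, 464, 658 and 806 cells, and cluster 6 (1.59%) gave 739, 634, 800, 684 and 573. The part of this mix in the genotype values was not tested. Both WT pups were above the mutant pups for 7 members on TMM-scaled values (11.5% of genes) and below for 1, Btg1 (10.9%). Egr1 stood at 2367 and 2620 CPM in WT and 1657, 979 and 1787 in mutant cells (log2 fold change -0.70, SE 0.22, adjusted p = 0.78, edgeR). Btg2 had 692 and 1079 against 536, 423 and 652 (-0.65), and Egr2 29.1 and 26.2 against 16.7, 10.6 and 20.5 (-0.74). In resting chondrocytes Egr1 (-0.53), Btg2 (-0.79) and Dnajb1 (-0.35) were on the same side and Nr4a2 (0.35) and Btg1 (0.40) on the other, all with an adjusted p of 0.74. In articular chondrocytes the smallest p-values were those of Atf3 (-0.61), Egr1 (-0.57), Gadd45b (-0.22), Hsph1 (-0.33) and Nr4a2 (0.18), with an adjusted p of 0.81, and in hypertrophic chondrocytes those of Zfp36l1 (0.49), Dusp6 (0.44), Fos (-0.36), Ier3 (0.31) and Btg1 (0.30). In Tgfbi-expressing chondrocytes 37 of 38 log2 fold changes were negative (median -0.26), against a positive change in 49.1% of all genes. The cluster of lower share gave 458, 21, 23, 500 and 373 of the cells, and the part of this mix in the result was not tested. Pup 2 was the highest and pup 4 the lowest in the share of all 39 genes.

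In tendon or ligament cells no member passed. Of the 39 members 32 had a positive log2 fold change (median 0.17), against 49.8% of all genes; without TMM scaling, which moved the median of all genes there by -0.11, 23 did (median 0.05), against 27.6%. The 5 feedback inhibitors were positive under both scalings and the 4 EGR genes negative under both. Dusp1 stood at 559 and 621 CPM in WT and 680, 739 and 738 in mutant cells (log2 fold change 0.41, SE 0.14, adjusted p = 0.98, edgeR), Dusp5 at 26.7 and 27.8 against 38.3, 30.1 and 35.8 (0.45) and Socs3 at 205 and 213 against 258, 229 and 241 (0.33). In each of these 3 the groups did not overlap. In all, 8 members had an unadjusted p under 0.05 (3.11% of genes), and on TMM-scaled values the mutant pups were above both WT pups for 12 members (9.36% of genes) and below them for 2, Atf3 and Egr3 (11.3%). On plain values the counts were 10 (2.99%) and 2 (17.1%).

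Perichondrial cells gave mutant pups above WT pups for 9 members on TMM-scaled values (11% of genes) and below for 3, Dnajb1, Egr1 and Fos (12.1%). On plain values the counts were 5 (4.5%) and 4 (20.1%). The mix of clusters in this class differed between pups: the cluster with the highest share of members, 25, gave 84, 544, 301, 182 and 28 of its cells. Cluster 4, with a mean share of 1.89%, had its highest marker score for tendon or ligament cells. It gave 1021, 803, 811, 741 and 941 of the 2603, 3036, 3832, 3378 and 2027 cells. The part of that mix in the genotype values was not tested. Positive log2 fold changes were found for 25 of 39 members (median 0.08) with TMM scaling and for 18 (median -0.01) without it. Dusp5 stood at 33.2 and 25.7 CPM in WT and 45.5, 43.4 and 48.6 in mutant cells (log2 fold change 0.72, SE 0.15, adjusted p = 0.89, edgeR), and Nr4a2 at 167 and 163 against 225, 191 and 211 (0.43). Neither overlapped. In pericytes Egr1 had 935 and 1183 against 681, 575 and 722 (-0.70, adjusted p = 0.26) and Myc 204 and 207 against 301, 349 and 287 (0.60, adjusted p = 0.45).

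Granulocytes, short-lived white blood cells, numbered 209, 121, 85, 26 and 33 cells. A cluster of mature cells gave 104, 59, 60, 10 and 22 of them and a cluster of precursors led by Mpo and Elane 105, 62, 25, 16 and 11, so their mix differed between pups, and its part in the values was not tested. They had 8 members with an unadjusted p under 0.05 (2.43% of genes) and positive log2 fold changes for 34 of 37 members tested (median 0.58), against 48.4% of all genes. Dusp1 stood at 353 and 459 CPM in WT and 1154, 710 and 679 in mutant cells (log2 fold change 1.11, SE 0.34, adjusted p = 1, edgeR). Hspa1b had 27.4 and 104 against 216, 398 and 160 (1.98). The mutant pups were above both WT pups for 5 members on TMM-scaled values (7.15% of genes) and below for 0 (8.61%). Without pup 2, Hspa1b was called there (3.23, adjusted p = 0.0171; 0.236% of all genes were called), with pup 1 as the only WT library and the spread taken from the mutant pups.

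In the remaining classes both directions occurred among the 5 genes with the smallest p-values. In fibroblasts these were Dusp1 (log2 fold change 0.36), Myc (0.36), Dnajb1 (-0.41), Fosl2 (0.42) and Klf2 (0.39), and in osteoblast lineage cells Nr4a2 (0.46), Dusp1 (0.39), Klf4 (0.40), Dusp6 (-0.44) and Egr2 (-0.43). In endothelial cells they were Hspa1b (0.57), Hspa1a (0.49), Hsph1 (-0.54), Nr4a2 (-0.48) and Zfp36 (0.43), and in macrophages Nr4a3 (-0.63), Btg2 (-0.45), Maff (0.50), Atf3 (-0.34) and Nr4a2 (-0.34). In erythroid cells they were Egr3 (1.24), Dusp6 (0.89), Btg1 (0.72), Btg2 (-0.68) and Myc (0.50). None of these passed the adjusted test.

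Some alternatives, each a change of 1 choice, called a member that the edgeR fit above did not. Without pup 2, which leaves pup 1 as the only WT library, assumed to vary like the mutant pups, Atf3 was called in articular chondrocytes (log2 fold change -1.0, adjusted p = 0.0184; 0.0574% of all genes were called). Without the low-count filter Egr1 was called in articular chondrocytes (-0.58, adjusted p = 0.0466) and pericytes (-0.73, adjusted p = 0.0154), Dusp5 in perichondrial cells (0.71, adjusted p = 0.0201) and Hspa1b in granulocytes (1.87, adjusted p = 0.0101). The shares of all genes called in these were 0.177%, 0.93%, 0.0477% and 0.0434%. With only the 3 pups low in Xist, which leaves 1 mutant pup assumed to vary like the WT pups, Dusp5 was called in articular chondrocytes (1.05, adjusted p = 0.0303; 0.0568% of all genes) and Klf2 in tendon or ligament cells (0.95, adjusted p = 0.00721; 0.467%). No member was called by 2 of these alternatives in the same class except Hspa1b in granulocytes.

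The difference between the genotype effects of the surrounding cells and of chondrocytes was tested in 1 model with the pup as a block. No member passed, against 0.00538% of genes, and 6 had an unadjusted p under 0.05, against 1.99%: Fosb (0.53), Dusp2 (1.71), Dnajb1 (0.33), Maff (0.35), Egr4 (0.93) and Klf4 (0.28), each with an adjusted p of 1. The estimate was positive for 36 of 39 members (47.8% of all genes), with a median of 0.18 on the log2 scale, and for 34 without TMM scaling. A difference in genotype effect between these cells and chondrocytes was thus not shown for any single member.

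Pups did not keep 1 rank from class to class. For all 39 genes together, pups 1 to 5 had the highest share in 3, 5, 2, 1 and 3 of the 14 classes and the lowest in 4, 1, 4, 5 and 0. Over the 37 clusters with at least 20 cells in every pup, they were highest in 10, 11, 3, 2 and 11. They were lowest in 6, 3, 13, 15 and 0 of these clusters, so pups 3 and 4 were lowest in most. Pups 3 and 4, with Xist in most cells, also had the lowest median UMIs, and the part of sex or depth was not tested. Pup 4 had the lowest share of the EGR genes in 9 of 14 classes, pup 5 the highest share of the feedback inhibitors in 9 and the lowest share of the chaperones in 8, and pup 1 the highest share of the chaperones in 7. Both WT pups were above all mutant pups for the EGR genes in 5 of 14 classes, and all mutant pups above both WT pups in 0. This share is a sum of UMIs that were mostly of Egr1. By gene, both WT pups were above in 5 classes for Egr1, 5 for Egr2, 1 for Egr3 and 2 for Egr4, and all mutant pups were above in 1 class for Egr3. These are plain values, on which 5.91% to 20.1% of all genes had both WT pups above in a class. No library was highest in every class.

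Genes of the same responses that were not on the list of 39 were also counted. Among 27 other early response genes 22 were called in perichondrial and tendon or ligament cells over chondrocytes, 12 higher and 10 lower (beside the 33.4% and 34.6% of all genes), and 22 in articular over resting chondrocytes (29.6% and 29.8% of all genes), 3 higher and 19 lower, among them Ptgs2, the inducible cyclooxygenase (-2.73), and Arc, a growth factor induced gene (-1.83). In hypertrophic over proliferating chondrocytes 16 were called, 10 higher and 6 lower (28.6% and 30.5% of all genes). Of 8 NF-kB targets and cytokines 5 were called outside the cartilage, all higher, with a median log2 fold change of 1.56 and Ccl2, a chemokine for monocytes, at 3.89. Of 17 other heat shock and unfolded protein genes 13 were called there, 8 higher and 5 lower. In articular over resting chondrocytes 15 of these chaperone genes (6 higher, 9 lower) and 4 NF-kB targets (1 higher, 3 lower) were called, and in hypertrophic over proliferating chondrocytes 9 (5 higher, 4 lower) and 5 (all lower). Only 1 gene of these lists passed in a genotype comparison, Ccn2, a matricellular growth factor, in macrophages (1.26, adjusted p = 0.0251, edgeR).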

How the data were processed

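Growth plate cells of 5 pups were measured by single-cell RNA-seq, and the authors deposited 1 matrix of UMI counts per pup, without normalization, made with the capture platform's cloud pipeline (version and annotation not given in the sources used here; build mm10 per the submitters' processing notes). Cells with 200 to 6000 detected genes and at most 10% mitochondrial UMIs were kept; no doublet caller was run. With the 39 genes and related response genes left out, 3000 variable genes (Pearson residuals, theta 100), 50 principal components and 20 neighbours gave Leiden clusters at resolution 1.5, named by marker genes (Python 3.11.15, numpy 2.4.6, scikit-learn 1.9.0, leidenalg 0.10.2). Of 50 clusters 48 were named, and 2446 cells stayed unnamed. Of these, 2418 formed a cluster whose marker score was highest for proliferating chondrocytes. It had a median of 16685.5 UMIs per cell and a mean share of early genes of 2.70%. It was left out of the proliferating class and of all chondrocytes, and its part in the class values was not tested. At resolution 0.8, 0 cells stayed unnamed.

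Levels are CPM, UMIs scaled to a common total, of the cells of a class summed per pup, for classes with at least 20 cells in every pup. The summed counts of all genes were tested with edgeR 4.0.16 (R 4.3.3, TMM scaling, filterByExpr, quasi-likelihood test, Benjamini-Hochberg adjustment over all genes tested, threshold 0.05); class differences and the interaction had the pup as a block. The SE is the absolute log2 fold change divided by the square root of F. Levels are plain and fold changes are TMM-scaled, so small differences can differ in sign. The scripts were tested on simulated data. Samples were grouped by genotype label. Alternatives were DESeq2 1.42.0, RLE size factors, no low-count filter, other clusterings, a 20% mitochondrial limit, leaving out each pup, the 3 pups low in Xist and, chosen after seeing the data, no TMM scaling and leaving out 6 clusters, 5 whose marker score was highest for another class (a cluster could take the name of a class close in score with a marker among its leading genes) and a resting cluster led by cycling genes. For the mutant minus WT share of UMIs in the members, clusters were also weighted equally, and mitochondrial and hemoglobin UMIs were left out. Over all settings of that difference, 195 values were closer to the main value than the SD within genotypes, and 5 were not. The fits of single genes were not repeated in these ways. Shares of cells with a UMI were taken from cells thinned to 2000 UMIs. The number of pups limits precision, totals were 117746735 to 183322632 UMIs per pup, and intervals for counting error are not given for sums over pups.

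The members, roles, markers and lists were chosen with earlier results of these data known. The named genes were 13 (Fos, Jun, Junb, Egr1, Ier2, Atf3, Nr4a1, Klf4, Dusp1, Myc, Hspa1a, Hspa1b, Hsp90aa1), given by fold change or per-pup values in all chondrocytes and in the class contrasts, the members of largest change past the threshold, and, where none passed, the 5 of smallest p. Not all of these 5 were given for all cells, Tgfbi-expressing and proliferating chondrocytes, tendon or ligament cells, perichondrial cells, pericytes and granulocytes. Any further gene was picked with its values known. Promoter windows are those of RefSeq.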

Additional observations from a re-analysis of the deposited data

How the results depend on the processing

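Most values kept their direction and side of the threshold. Under alternatives to the 0 members called for genotype, DESeq2 called 2, no low-count filter 4, the 3 pups low in Xist 2, and leaving out a pup 0 to 2; for the 11 genes called, these gave 159, 555, 129 and 4 to 168. For the 1 gene of the interaction, 0 were called with the members among the clustering features and at resolutions 0.8 and 2.5, and 0 to 1 with a pup left out. Mutant minus WT cells with a Nr4a1 UMI was -6.69 percentage points thinned to 4000 UMIs and -4.15 thinned to 2000.

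In hypertrophic over proliferating chondrocytes signs turned with the clustering. With the members among the features, log2 fold changes were 0.11 for Egr1, 0.83 for Egr4, 0.28 for Fos, 0.62 for Jun, 0.76 for Hspa1a and 0.18 for Myc. At resolution 0.8 they were 0.21, 1.84, 0.21, 0.45, 0.82 and 0.21, with 0.24 for Hspa1b and -0.25 for Hsp90aa1. At resolution 2.5 Hspa1a was 0.52, Hspa1b 1.18, Hsp90aa1 -0.03 and Myc 0.03. With the 20% mitochondrial limit Hspa1a was 0.43, Hspa1b 0.92 and Myc 0.07. In articular over resting chondrocytes Dusp1 was -0.42 with the members among the features, and in the surrounding cells Ier2 was -0.03 without TMM scaling. Without the clusters that scored highest for another class and the cycling resting cluster, Dusp1 was -0.0006 and Ier2 -0.003 in these comparisons, neither called. The causes were not tested.

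In the genotype comparison of all chondrocytes, no value that turned was called. Dusp1 was 0.01 by DESeq2, 0.0009 with RLE factors and 0.20 in the pups low in Xist, where Ier2 was 0.10, Jun 0.23 and Junb 0.24. Hspa1b was 0.06 with the 20% limit and 0.04 at resolution 2.5. In endothelial cells Hspa1a was -0.05 in the pups low in Xist. With a pup left out, the ranges were -0.13 to 0.10 for Dusp1, -0.48 to 0.26 for Hspa1a, -0.52 to 0.54 for Hspa1b, -0.32 to 0.31 for Ier2, -0.32 to 0.11 for Jun, -0.32 to 0.03 for Junb, -0.03 to 0.17 for Klf4, -0.22 to 0.004 for Nr4a1 and, in articular chondrocytes, -0.64 to 0.08 for Hsph1. Osteoblast lineage cells could not be fitted under some clusterings, nor granulocytes at resolution 2.5.

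No paired analysis was possible because the labels number the pups 1 to 5 with no number in both genotypes, and nothing ties a WT to a mutant pup; the pup was the block in class differences. With 2 WT pups, 1 library can decide a value, and sex, depth and genotype overlapped in part.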
